A study of Homo sapiens with 2 samples.

Results

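The SLC25 genes encode the mitochondrial carriers. The rows of the count table whose gene symbol begins with SLC25A were taken, which gave 49 rows of 19927 in all. They stand for 48 genes, because SLC25A6 has 2 rows, SLC25A6 and SLC25A6_1. The cells were Huh7, a long-established line from a human liver cancer (hepatocellular carcinoma). The first library came from cells given DMSO, the solvent control, and the other from cells given Homochlorcyclizine Dihydrochloride, an H1 antihistamine called the compound below, both harvested after 48 h. The labels give neither the compound's dose nor the genotype of the line, and all results are for this 1 line. With 1 library per group there is no replicate and no test between the conditions. Ratios are of the compound over DMSO, and the bracketed range after a ratio is its exact 95% counting interval, which covers counting error only and not the spread between cultures.

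Mitochondrial carriers are small membrane proteins that sit mostly in the inner mitochondrial membrane. Each one passes a particular group of solutes, such as nucleotides, phosphate, carboxylates, amino acids or cofactors, usually by exchanging one solute for another. In liver cells they link the matrix with cytosolic pathways such as fatty acid synthesis, the urea cycle, redox shuttles and heme synthesis.

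The libraries held 38133894 counts (DMSO) and 40791119 counts (homochlorcyclizine), and 12353 genes had a mean of at least 1 CPM (a gene's counts relative to the library total, after scaling with TMM factors) over both. All 8 hepatocyte and hepatoma markers checked were over 1 CPM in the mean. Their summed level was 24000 CPM with DMSO and 22278 CPM with the compound. The 4 markers of endothelium summed to 12.0 and 5.92 CPM, the 4 of fibroblasts to 10.5 and 10.6 CPM and the 4 of leukocytes to 3.93 and 2.58 CPM, and of these KDR and MS4A1 had 0 counts in both libraries.

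Of the 49 rows, 41 had a mean of at least 1 CPM, 4 had fewer counts and 4 had none in either library. A gene is called higher or lower here when its ratio passes a stated fold and its counting interval excludes 1. At 2-fold, 2 members were higher, SLC25A18 and SLC25A45, which is 4.88% of 41 against 5.81% of all genes, and 2 were lower, SLC25A12 among them, again 4.88% against 5.1%. SLC25A12 reached a mean of 1 CPM only through the DMSO library, so its call adds no support to a count of lower members. Each of the 4 intervals also held ratios within 2-fold. At 1.5-fold, 5 members were higher (12.2% against 14.1% of all genes) and 6 were lower (14.6% against 14.1%). The carriers passed each fold at about the share found over all genes. Their median log2 ratio was -0.07, beside -0.01 over all genes, with 19 members above a ratio of 1 and 22 below it.

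**Figure D1:**
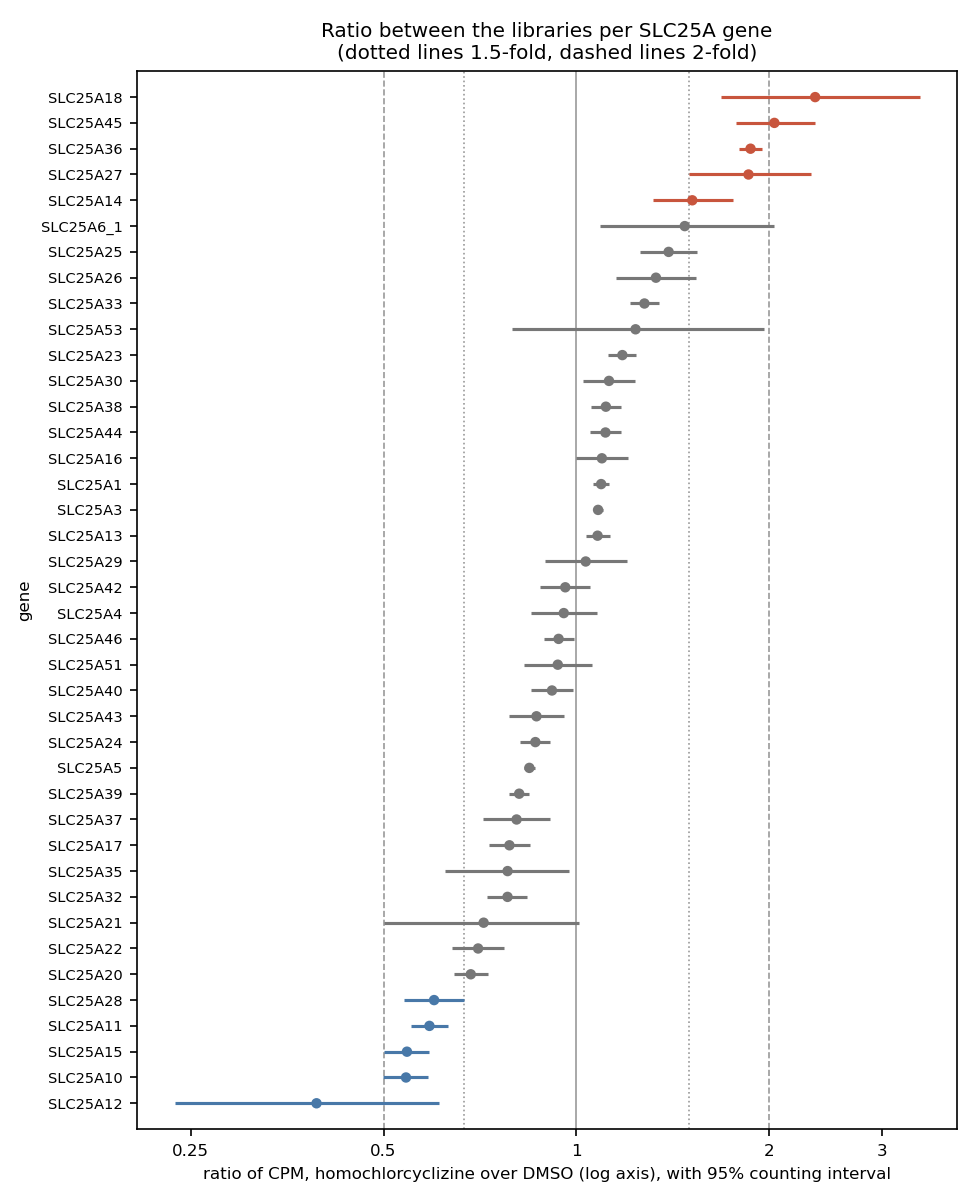
Ratio of CPM (homochlorcyclizine over DMSO, log axis) of 40 of the 41 measured SLC25A rows, ordered by ratio. Points are the ratios, horizontal lines the 95% counting intervals, dotted vertical lines 1.5-fold and dashed lines 2-fold, and the coloured points are 5 higher and 5 lower members at 1.5-fold. Members run from SLC25A12 at 0.393 to SLC25A18 at 2.36.

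Nearest to the 1.5-fold bound were SLC25A14 at 1.52 and, just under it, SLC25A6_1 at 1.48. On the lower side, SLC25A28 at 0.600 was past 1.5-fold and SLC25A20 at 0.684 was not. Of the 41 measured members, 34 had an interval that excluded 1. Over all measured genes this share was 77.8%, so at this depth an interval away from 1 did not set a gene apart.

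The ordering of the carriers by level was much alike in both libraries. Levels between genes are compared in FPKM, which divides counts by gene length and library total. SLC25A5, the main adenine nucleotide translocase of dividing cells, was at 441 FPKM in the DMSO library and 371 FPKM in the homochlorcyclizine library, the highest member in both. SLC25A1, the citrate carrier, was at 139.9 and 152 FPKM, and SLC25A3, the phosphate carrier, at 120.2 and 129 FPKM. These 3 members made up 56.1% of the summed FPKM of all members with DMSO and 56.2% with the compound. SLC25A6, which could not be measured reliably, enters that sum only with the reads counted for it.

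SLC25A39, which is needed for glutathione import into mitochondria, came next at 96.7 and 78.4 FPKM, and every other member was at a lower level than SLC25A39 in both libraries. In all, 21 members were over 10 FPKM with DMSO and 19 with the compound. SLC25A36 was at 27.3 FPKM with DMSO and 50.8 FPKM with the compound, which made it the fifth member by level in the treated library.

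The position of SLC25A3, and with it the share of the 3 highest members, rests on the length used for it. Its deposited counts and FPKM imply 6063 bases, while the longest principal coding transcript of GENCODE v29 has 1678 bases. Per kilobase of the latter, SLC25A3 was at 433 CPM with DMSO and 469 CPM with the compound, against 452 and 382 CPM for SLC25A5. On that scale the order of these 2 genes differed between the libraries.

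**Figure D2:**
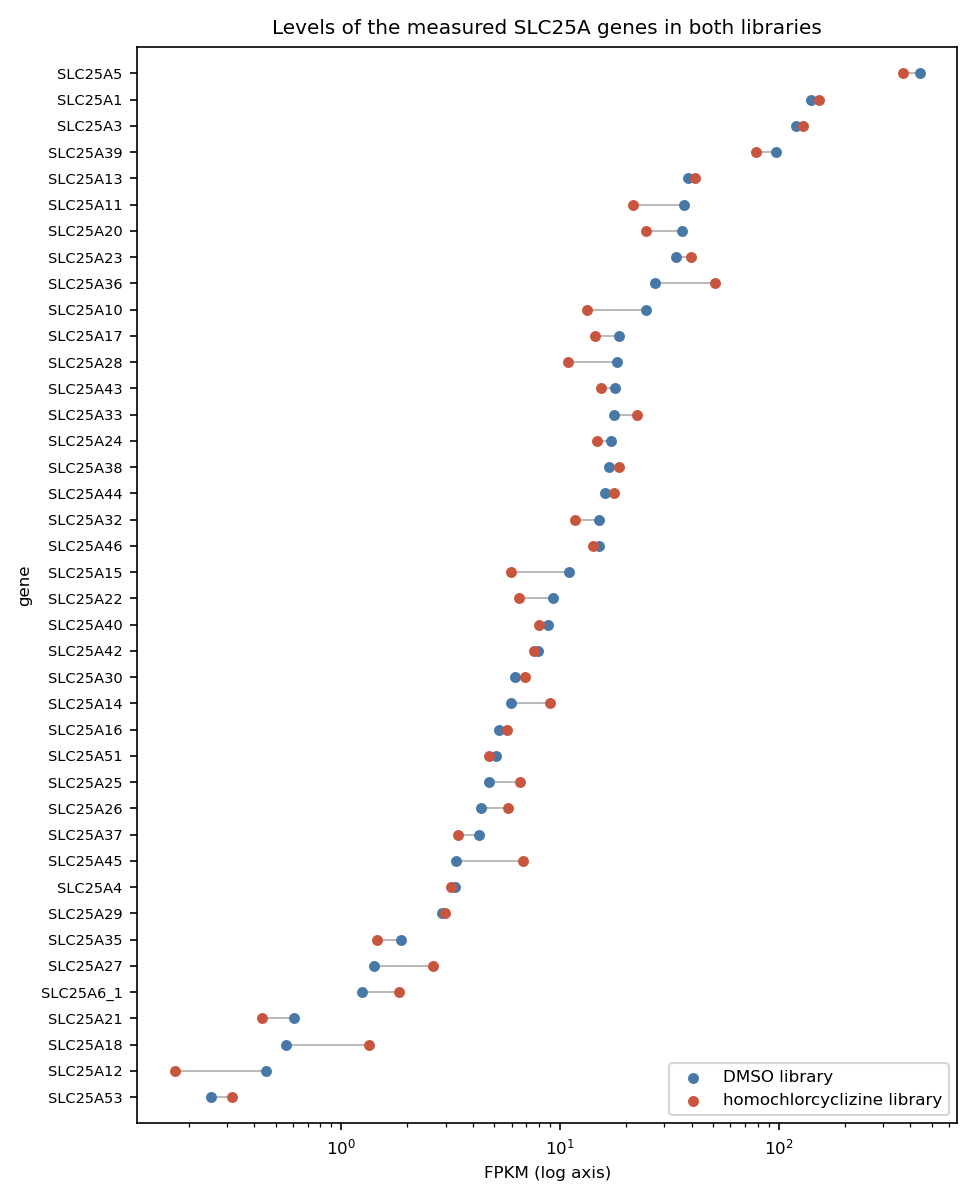
FPKM (log axis) of 40 of the 41 measured SLC25A rows in the DMSO library (blue) and the homochlorcyclizine library (red), ordered by the DMSO level. Each grey line joins the 2 libraries of a gene. SLC25A5 was highest in both, and the long grey lines belong to genes such as SLC25A36, SLC25A10 and SLC25A45.

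Carriers of adenine nucleotides and phosphate feed ATP synthesis, and SLC25A3, SLC25A4 and SLC25A5 were within 1.5-fold of a ratio of 1. SLC25A5, which exchanges ADP for ATP, was at 576 CPM with DMSO and 486 CPM with the compound, a ratio of 0.844 (0.828 to 0.861). Once a trend over gene length was removed, the log2 ratio of SLC25A5 was -0.086 in place of -0.244, outside that interval. SLC25A4, its isoform of heart and muscle, was at 14.6 and 14.0 CPM, and the interval of its ratio, 0.849 to 1.08, included 1. SLC25A3, which brings phosphate into the matrix, was at 727 and 786 CPM. SLC25A31, an isoform known from the testis, had 0 counts in both libraries, which allows a level of up to 0.0785 CPM with DMSO and 0.0737 CPM with the compound.

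SLC25A6, the third widespread translocase, could not be measured reliably. It lies at chromosome X, 1386152 to 1392113 (RefSeq, GRCh38.p14), in a region that the X and Y chromosomes share. Its plain row had 0 counts in both libraries, and its second row had 69 counts with DMSO and 109 with the compound. The table has 19 genes with such a second row, 17 of which have promoters on both X and Y in RefSeq, and 16 of the 19 plain rows were at 0 in both libraries. The labels do not say how reads that match both copies were counted.

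The ATP-Mg/phosphate carriers, which are regulated by calcium and adjust the matrix pool of adenine nucleotides, did not share a direction. SLC25A25 was at 16.3 CPM with DMSO and 22.7 CPM with the compound, a ratio of 1.39 (1.26 to 1.55). SLC25A23 was at 72.4 and 85.4 CPM and SLC25A24 at 72.2 and 62.3 CPM. The family's short relative SLC25A41 had 0 counts against 4, too few for a fold.

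Among the carriers of di- and tricarboxylates, 2 of 4 were at least 1.5-fold lower, beside 14.1% of all genes, and the citrate carrier was not. With 4 members this is a count and no result about the group. SLC25A10, the dicarboxylate carrier that exchanges malate or succinate for phosphate (chromosome 17, 81712284 to 81721012), was at 43.4 CPM with DMSO and 23.5 CPM with the compound, a ratio of 0.542 (0.4998 to 0.587). SLC25A11, the oxoglutarate-malate exchanger (chromosome 17, 4937130 to 4940046), was at 59.7 and 35.2 CPM, a ratio of 0.590 (0.551 to 0.630). SLC25A1, which exports citrate for cytosolic acetyl-CoA, was at 214 and 234 CPM, a ratio of 1.09 (1.06 to 1.13).

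SLC25A21, which carries oxoadipate and related acids, was near the filter at 2.07 and 1.47 CPM, with an interval that included 1. Of 11 enzymes listed around these carriers, ME3 was the only one past 2-fold, beside 10.9% of all genes in either direction. ME3, a mitochondrial malic enzyme, was at 2.98 CPM with DMSO and 7.79 CPM with the compound. ACLY, which cleaves the exported citrate, was at 726 and 1129 CPM, a ratio of 1.55, and ME2, a further malic enzyme, had a ratio of 0.616. MDH2, the malate dehydrogenase of the matrix, had a ratio of 0.787.

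The aspartate-glutamate carriers, which work with SLC25A11 in the malate-aspartate shuttle, were on opposite sides of a ratio of 1. SLC25A13 (citrin), the liver isoform, was at 101.7 CPM with DMSO and 109.7 CPM with the compound, a ratio of 1.08 (1.03 to 1.13). SLC25A12 (aralar), known from brain and muscle (chromosome 2, 171783405 to 171894244), was low in both, with 66 counts against 27, or 1.73 and 0.663 CPM, a ratio of 0.393 (0.236 to 0.609). SLC25A12 was over the filter only through the DMSO library. In each library SLC25A13 took most of the pair's counts, 98.3% (97.9 to 98.7, exact binomial interval) with DMSO and 99.4% (99.1 to 99.6) with the compound.

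GOT2, the mitochondrial aminotransferase of the same shuttle, was at 139.1 CPM with DMSO and 69.4 CPM with the compound, a ratio of 0.499 (0.477 to 0.523). Of the 7 measured enzymes listed for aspartate, glutamate and redox shuttles, GOT2 was the 1 past 2-fold, beside 10.9% of all genes in either direction. GPD2, of the glycerol phosphate shuttle, and GLUD1, the glutamate dehydrogenase, had ratios of 0.554 and 0.593.

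The glutamate carriers were also on opposite sides. SLC25A22, the main isoform here, was at 28.4 CPM with DMSO and 19.97 CPM with the compound, a ratio of 0.702 (0.640 to 0.770). SLC25A18, its scarce isoform (chromosome 22, 17563498 to 17590995), had 46 counts against 117, or 1.20 and 2.87 CPM, a ratio of 2.36 (1.68 to 3.44). The share of SLC25A18 in the pair's counts was 4.06% (2.99 to 5.38) with DMSO and 12.6% (10.5 to 14.9) with the compound. Intervals of shares also cover counting error only, and those of the main isoform did not overlap in 5 of the 6 carrier groups compared, so this does not set the glutamate pair apart. These 5 include the adenine nucleotide group, in which SLC25A6 could not be measured reliably.

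SLC25A15, which exchanges ornithine and citrulline for the urea cycle (chromosome 13, 40789611 to 40812460), was at 42.0 CPM with DMSO and 22.8 CPM with the compound, a ratio of 0.544 (0.501 to 0.590). SLC25A2, its closely related copy on chromosome 5, had 1 count against 22. Its ratio was 11.0 with the prior count of 1 used throughout and 20.7 without one, with a counting interval of 3.34 to 852. The gene was under the 1 CPM filter in both libraries, and reads could be split between such similar copies. Its share of the pair's counts was 0.0622% (0.00158 to 0.346) with DMSO and 2.31% (1.45 to 3.48) with the compound, or 0.168% and 6.004% in FPKM. The FPKM shares rest on an implied 3821 bases for SLC25A15, whose longest principal transcript in GENCODE v29 has 1586. Per kilobase of the longest principal transcript, SLC25A15 was at 14.4 CPM and SLC25A2 at 0.381 CPM with the compound.

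Of 8 urea cycle enzymes listed beside these carriers, 2 were at least 2-fold lower (5.1% over all genes), and none was 2-fold higher. At 1.5-fold, 3 were higher and 2 lower, beside 14.1% of all genes in each direction. Above a ratio of 1 were 5 of the 8, as were 6046 of all 12353 genes. The 2 lower enzymes are CPS1, which makes carbamoyl phosphate in the matrix, and OTC, which joins it to ornithine. Both were scarce and over the 1 CPM filter only through the DMSO library, so their count is no support for a lower list: OTC had 69 counts against 18 and CPS1 99 against 26. ASS1, the next and cytosolic step, was at 121.1 CPM with DMSO and 229 CPM with the compound.

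**Figure D3:**
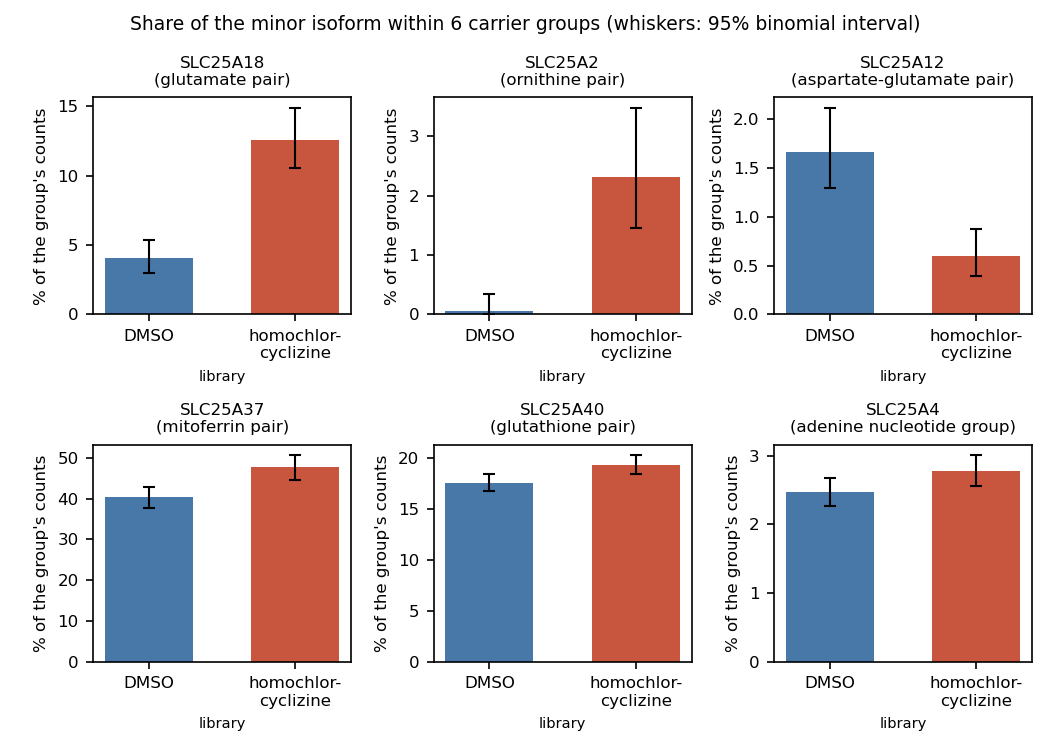
Share of the minor isoform in the counts of 6 carrier groups, in percent, for the DMSO library (blue) and the homochlorcyclizine library (red). Whiskers are exact 95% binomial intervals and every axis starts at 0. In the adenine nucleotide group SLC25A6 could not be measured reliably. The share of SLC25A18 was 4.06% against 12.6% and that of SLC25A12 was 1.67% against 0.601%.

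Other amino acid carriers differed little. SLC25A44, which carries branched-chain amino acids, was at 61.2 CPM with DMSO and 67.9 CPM with the compound. SLC25A29, a carrier of basic amino acids, was at 9.26 and 9.58 CPM, with an interval that included 1. SLC25A20, the carnitine-acylcarnitine carrier that admits fatty acids for oxidation, was at 64.2 and 43.9 CPM, a ratio of 0.684 (0.643 to 0.727), under the 1.5-fold rule.

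The carnitine system around SLC25A20 held ratios on both sides of 1. CPT1A, which makes acylcarnitine at the outer membrane, was at 80.9 CPM with DMSO and 239.7 CPM with the compound. CPT2, which takes the acyl group back inside, was at 57.4 and 36.9 CPM, a ratio of 0.643 (0.602 to 0.687). CROT, the peroxisomal acyltransferase, had a ratio of 0.532, and CPT1B, the muscle isoform of CPT1A, one of 1.76.

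Of 7 measured carriers of coenzymes and cofactors, 5 were below a ratio of 1. SLC25A32, a carrier of folate or flavin, was at 43.7 and 34.1 CPM. SLC25A17, the carrier of coenzymes in the peroxisomal membrane, was at 40.0 and 31.5 CPM.

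SLC25A16, SLC25A26, SLC25A42 and SLC25A51 were between ratios of 0.935 and 1.33. SLC25A26, which brings S-adenosylmethionine into the matrix, was at 8.56 CPM with DMSO and 11.4 CPM with the compound, a ratio of 1.33 (1.15 to 1.54). SLC25A16 and SLC25A42, both linked to coenzyme A, had ratios of 1.10 (0.998 to 1.20) and 0.961 (0.879 to 1.05). SLC25A51, the carrier of NAD, had a ratio of 0.935 (0.827 to 1.06), and its copy SLC25A52 had 0 counts in both libraries.

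Both carriers of pyrimidine nucleotides were above a ratio of 1. These carriers supply mitochondria with building blocks for their DNA and RNA. SLC25A36 (chromosome 3, 140941836 to 140980995) was at 89.7 CPM with DMSO and 167.8 CPM with the compound, a ratio of 1.87 (1.79 to 1.95). SLC25A33 (chromosome 1, 9539465 to 9585173) was at 68.2 and 87.1 CPM, a ratio of 1.28 (1.21 to 1.34), under the 1.5-fold rule. Their summed FPKM was 45.0 with DMSO and 73.3 with the compound, a ratio of 1.63, the highest among the groups of carriers formed by substrate.

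Stretches before the start sites of these 2 genes are shown because both genes were above a ratio of 1 and hold the same short motifs, and SLC25A31 is shown beside them as a carrier with the E-box and no counts. The sequences are those of RefSeq on GRCh38.p14, plus strand, with capitals marking the E-box CACGTG and the cyclic AMP response element TGACGTCA:
SLC25A36, chr3:140941656-140941736: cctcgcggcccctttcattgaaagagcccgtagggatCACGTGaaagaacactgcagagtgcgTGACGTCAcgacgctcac
SLC25A33, chr1:9539385-9539464: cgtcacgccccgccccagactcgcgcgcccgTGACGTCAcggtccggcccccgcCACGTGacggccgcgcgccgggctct
SLC25A31, chr4:127730295-127730364: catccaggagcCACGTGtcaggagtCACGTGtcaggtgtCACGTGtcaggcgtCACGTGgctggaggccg

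The first 2 stretches hold 1 copy of each motif, and the stretch of SLC25A31 holds 4 copies of the E-box and 0 of the other. In windows from 250 bases before to 50 after the start, searched on both strands, the E-box was in 9 of 51 promoters of 40 carriers (17.6%), against 8.32% of 22092 promoters of genes in the table. Ratios of the measured carriers with an E-box ran from 0.702 (SLC25A22) to 1.87 (SLC25A36), with SLC25A13, SLC25A26, SLC25A33 and SLC25A38 also above 1 and SLC25A46 and SLC25A51 below it. TGACGTCA, chosen after the stretches had been read, was in the promoters of 3 carriers, SLC25A25, SLC25A33 and SLC25A36, or 5.88% of member promoters against 2.27% of all. The stretches of SLC25A33 and SLC25A36, both known to be above a ratio of 1, were those read. Their ratios and the share above therefore lend the motif no support. SLC25A25, whose stretch is not shown, had a ratio of 1.39. A match shows only that the letters are there.

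Other searched motifs were GCGCATGC (the core of the NRF1 site), TGATGCAA (a site of ATF4), TCACCCCAC (a sterol response element), TGACNNNGC (the core of the NRF2 site) and CCAAT. The first 3 were in 0 of the 51 promoters, against 3.71%, 0.679% and 0.425% of all promoters. At shares this low, 0 among 51 promoters does not set the carriers apart. The 51 count the promoter of SLC25A6 on both X and Y. TGACNNNGC was in 17.6% against 13.8% and CCAAT in 45.1% against 34.7%. The median GC content was 66.0% in member promoters and 62.3% in all.

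Among the carriers for iron and heme synthesis, SLC25A28 was lower. SLC25A28 (mitoferrin-2), which imports iron (chromosome 10, 99610522 to 99659286), was at 22.7 CPM with DMSO and 13.6 CPM with the compound, a ratio of 0.600 (0.538 to 0.667), which was not past 1.5-fold once a trend over gene length was removed. SLC25A37 (mitoferrin-1), its isoform of red cell precursors, was at 15.4 and 12.4 CPM, a ratio of 0.806 (0.714 to 0.910). SLC25A28 made up 59.6% (57.0 to 62.1) of the counts of the 2 mitoferrins with DMSO and 52.3% (49.3 to 55.4) with the compound. In FPKM its share was 81.1% and 76.1%, and that of SLC25A37 was 18.9% and 23.9% in place of 40.4% and 47.7% of counts.

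SLC25A38, which supplies glycine for heme, was at 67.0 CPM with DMSO and 74.5 CPM with the compound. ALAS1, the enzyme that uses this glycine, had a ratio of 1.05 (1.01 to 1.10). Of 9 measured heme and iron-sulfur enzymes none was past 2-fold, beside 10.9% of all genes in either direction. NFS1, which frees sulfur for iron-sulfur clusters, had the lowest ratio, 0.544. CPOX, of heme synthesis, had a ratio of 0.713.

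The 2 carriers linked to mitochondrial glutathione were both below a ratio of 1. SLC25A39 was at 166 CPM with DMSO and 135 CPM with the compound, a ratio of 0.814 (0.785 to 0.844). SLC25A40 was at 35.5 and 32.5 CPM, a ratio of 0.916 (0.848 to 0.989). GCLC, the catalytic subunit of the enzyme that starts glutathione synthesis, was instead above 1, at a ratio of 1.48 (1.41 to 1.55).

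All 3 relatives of the uncoupling proteins were above a ratio of 1, and 2 of the 3 were past 1.5-fold, beside 14.1% of all genes, again a count over few members. SLC25A27 (UCP4), known from brain (chromosome 6, 46652975 to 46678190), was at 3.35 CPM with DMSO and 6.24 CPM with the compound, a ratio of 1.86 (1.5003 to 2.32). SLC25A14 (UCP5; chromosome X, 130339919 to 130373357) was at 8.14 and 12.4 CPM, a ratio of 1.52 (1.32 to 1.75). SLC25A30, from the same branch, was at 21.8 and 24.5 CPM, a ratio of 1.12 (1.02 to 1.23).

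Family members that lack the SLC25A prefix went in both directions. UCP2, the uncoupling protein with the highest count here, was at 58.0 CPM with DMSO and 83.6 CPM with the compound, a ratio of 1.44 (1.37 to 1.52). UCP1, the heat-producing protein of brown fat, was scarce, with 82 counts against 49. The outer membrane proteins MTCH1 and MTCH2 had ratios of 1.22 and 0.939.

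Of the carriers whose solute is not settled or lies outside the groups above, SLC25A45 was past 2-fold. SLC25A45 (chromosome 11, 65375192 to 65383701) had 287 counts against 624, or 7.51 CPM with DMSO and 15.3 CPM with the compound, a ratio of 2.04 (1.77 to 2.36). In RefSeq the whole gene lies inside the span of FRMD8, which was at 233.9 and 410.4 CPM, a ratio of 1.75 (1.71 to 1.80). In GENCODE v29 the 2 genes are on opposite strands and do not overlap, with FRMD8 starting at 65386599. Since it is not given whether counting used the strand, the part of FRMD8 reads in the SLC25A45 count was not tested. SLC25A12, SLC25A15, SLC25A18, SLC25A27 and SLC25A28 also overlap RefSeq genes, all of them non-coding RNAs or pseudogenes without a row in the table.

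SLC25A46, an outer membrane protein tied to mitochondrial dynamics, was at 69.9 CPM with DMSO and 65.5 CPM with the compound. SLC25A43 was at 22.01 and 19.1 CPM, and SLC25A35 at 4.79 and 3.73 CPM. SLC25A53 was near the filter at 0.968 and 1.20 CPM. These 4 were within 1.5-fold of 1.

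Below the filter, SLC25A34 had 14 counts with DMSO and 30 with the compound, and SLC25A48 had 18 against 8. SLC25A47, a carrier described mainly in liver, had 0 counts in both libraries.

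Set beside other mitochondrial genes, the carriers had a wider spread and a median nearer to 0. The interquartile range of the carriers ran from -0.36 to 0.24 on the log2 ratio scale, beside -0.35 to 0.33 over all genes. For 79 measured nuclear genes of respiratory chain subunits, with those of ATP synthase included, it ran from -0.58 to -0.24. Their median was -0.37, and 72 of the 79 were below a ratio of 1. For 76 mitochondrial ribosomal proteins the median was -0.50 and 75 were below 1. The 203 other measured SLC genes, mostly carriers of other membranes, had a median of 0.23. With 1 library per group the difference between these groups was not tested. No trend over gene length was removed from these group values, so its part in the difference was not tested either.

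**Figure D4:**
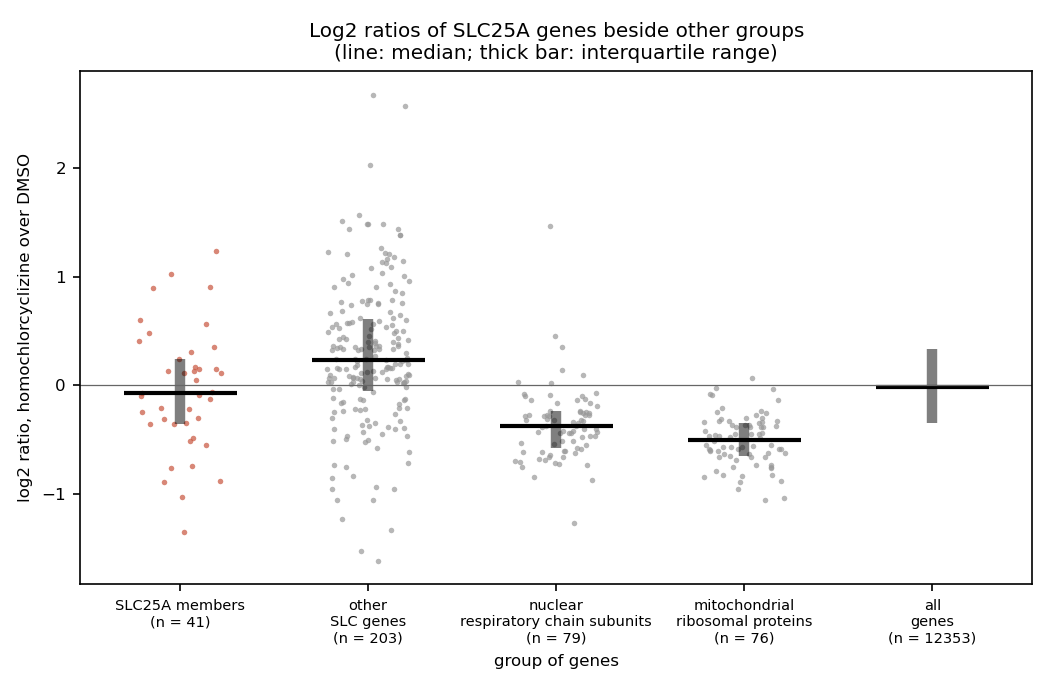
Log2 ratios (homochlorcyclizine over DMSO) of measured genes, 1 point per gene, for SLC25A members, other SLC genes, nuclear respiratory chain subunits (ATP synthase included) and mitochondrial ribosomal proteins. The line is the median and the thick bar the interquartile range, and for all 12353 genes only these are drawn. No trend over gene length was removed. The median of the carriers was -0.07, against -0.37 and -0.50 for the respiratory chain and ribosomal groups.

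Carriers are imported through the TOM complex, small TIM chaperones and the TIM22 complex. Of 13 genes of this route, 10 were below a ratio of 1, as were 6307 of all 12353 genes, 3 were at least 1.5-fold lower (14.1% of all genes) and none was past 2-fold. The median log2 ratio of the 13 was -0.32. TOMM40, the outer membrane pore, had a ratio of 0.542, and the chaperones TIMM8A and TIMM10 had ratios of 0.558 and 0.656. TOMM70, the receptor for carriers, was at 334 CPM with DMSO and 249 CPM with the compound, and TIMM22 at 24.2 and 21.3 CPM.

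Other channels and carriers of mitochondria were mostly below 1 as well, as were 6307 of all 12353 genes. All 3 VDAC channels of the outer membrane were below a ratio of 1, with VDAC3 at 0.520, VDAC1 at 0.730 and VDAC2 at 0.971, whose interval of 0.935 to 1.01 included 1. Of 13 measured inner membrane carriers from other families, 11 were below 1. Only 2 were at least 1.5-fold lower, beside 14.1% of all genes, and none was past 2-fold. SFXN2, LETM1 and ABCB8 had the lowest ratios, 0.536, 0.590 and 0.684. The pyruvate carrier subunits MPC1 and MPC2 had ratios of 0.972 and 0.819. Of 5 measured partners of uncoupling and permeability, CKMT1A, PPIF and ATP5IF1 had the lowest ratios, 0.482, 0.561 and 0.610. CKMT1A, a mitochondrial creatine kinase, had 75 counts against 38, was over the filter only through the DMSO library and has a near-identical copy, CKMT1B, so its reads could be split.

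Of 10 measured regulators of mitochondrial genes, ATF4, a stress factor, was farthest from a ratio of 1, at 539 CPM with DMSO and 892 CPM with the compound. PPARGC1B, a coactivator, and TFAM, which packages mitochondrial DNA, had ratios of 0.610 and 0.676. PPARGC1A was under the filter, with 24 counts against 52. Among 19 enzymes listed beside cofactor and amino acid carriers, BCAT2, the mitochondrial aminotransferase of branched-chain amino acids, had a ratio of 0.633.

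The summed level of the carriers, as counted, differed little. SLC25A6, which could not be measured reliably, enters the sums only with the reads counted for it. The FPKM sums also rest on the length implied for SLC25A3. Their FPKM added up to 1249.9 with DMSO and 1161 with the compound, a ratio of 0.929. In CPM the sums were 2892 and 2854, a ratio of 0.987 (0.979 to 0.995).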

How the data were processed

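Poly(A)-selected RNA of 2 libraries was analysed. The authors deposited raw counts per gene symbol and, for each library, FPKM values. The reads were processed on hg38, per the submitters' processing notes. For the aligner, counting program, strand setting and annotation, the sources used here name nothing. Over 14778 genes with counts in both libraries, FPKM ratios differed from ratios of counts over totals by at most 3.13e-05%.

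Counts were scaled with TMM factors (edgeR 4.0.16, R 4.3.3). Log2 ratios used a prior count of 1, and intervals are Clopper-Pearson at 95% (Python 3.11.15, scipy 1.17.1). Intervals cover counting error only, and reach 1.55-fold beyond the ratio for a gene at 1 CPM and 1.22-fold for one at 5 CPM. For 0 counts the limit is 3 counts. PCR copies are not independent molecules. The size rules (2-fold and 1.5-fold, mean of at least 1 CPM) were tested on simulated counts with counting error alone. Such counts hold no spread between cultures, so they cannot show how the rules fare with it. Alternatives were scaling by totals, DESeq2 1.42.0 size factors or upper quartiles, other prior counts and filters, FPKM, and removal of a length trend in 20 bins.

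By rule every member is named, and of each list of other genes up to 3 measured genes with the largest absolute log2 ratio plus a set of further genes named whatever their values. The values of 1 member and 2 listed genes are not reported here, though counts include them. The carrier groups by substrate, the lists and the members were chosen with earlier results of these data known. Coordinates and promoters are RefSeq GRCh38.p14, matched by symbol. A planned description of the carrier proteins was not run because protein sequences were not used here.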

Additional observations from a re-analysis of the deposited data

How the results depend on the processing

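No paired analysis was possible because each group has 1 library. The count of members at least 2-fold lower was 2, and 1 with upper-quartile scaling, 1 with the length trend removed and 1 with a filter of 5 CPM. SLC25A12 dropped out under the filter, which leaves 34 members, and was still past 2-fold under the other 2 settings. That filter also took the count of 2-fold higher members from 2 to 1 and of 1.5-fold higher members from 5 to 3, because SLC25A18 and SLC25A27 were left out. SLC25A6_1 passed 1.5-fold with upper-quartile scaling and with the length trend removed, and SLC25A28 did not pass it with the length trend removed. Of 287 member values recomputed under 7 settings, 277 stayed within their counting interval, 10 moved outside it and 0 of the values past 1.5-fold changed sign. Removal of the length trend moved 8 of these: SLC25A1, SLC25A3, SLC25A5, SLC25A11, SLC25A20, SLC25A28, SLC25A39 and SLC25A43. Upper-quartile scaling moved SLC25A3 and SLC25A5. With no filter, SLC25A2 passed 2-fold and SLC25A34 1.5-fold. The median log2 ratio ran from -0.08 to -0.04 over the settings tried. The summed level had a ratio of 0.929 in FPKM, 0.987 in CPM and 0.953 per kilobase of the longest principal transcript, a setting chosen after seeing the data. In FPKM in place of counts, SLC25A5 took 98.98% and 98.67% of its group in the DMSO and treated libraries, SLC25A22 94.3% and 82.9%, SLC25A28 81.1% and 76.1%, and SLC25A39 91.7% and 90.7%. The group of SLC25A5 includes SLC25A6, which could not be measured reliably, so that share holds only for the reads counted. SLC25A13 took 98.8% in the DMSO and SLC25A15 93.996% in the treated library. The share of SLC25A15 in FPKM rests on the length implied for it. Spread between cultures was not measured, so how far these ratios would hold in other cultures was not tested.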
